A study of Homo sapiens with 9 samples.

Results

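The 8 genes described here encode the plasminogen activator system and the laminin-332 axis of an epithelial cell: PLAU, PLAUR, PLAT, SERPINE2, LAMA3, LAMB3, ITGA6 and ITGB4. They were taken by symbol from the deposited count table, each identifier once, and make up 8 of its 62710 gene identifiers. The study measured polyadenylated RNA of wild-type HT-29 cells, an established human colorectal adenocarcinoma line, to learn how the cells respond to ADP-heptose, a bacterial sugar metabolite sensed inside the cell by the kinase ALPK1. In 1 group the cells received 500 ng/mL ADP-heptose, in another 500 ng/mL of purified flagellin, the protein of the bacterial flagellum and ligand of Toll-like receptor 5, and in the third nothing. Each group had 3 libraries, and cells were lysed 2.5 h after stimulation. No label says that the libraries of a group came from separate cultures. The study's figure legends speak of independent experiments, and the p-values measure the spread between these libraries.

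Plasmin, the protease that dissolves fibrin and cleaves matrix proteins, is made from plasminogen by 2 activators, urokinase (PLAU) and tissue-type activator (PLAT). Urokinase works on the cell surface while bound to its receptor (PLAUR), and the serpin protease nexin-1 (SERPINE2) traps it. Laminin-332, which epithelial cells lay down in their basement membrane and which is a substrate of several matrix proteases, is a trimer that includes the α3 (LAMA3) and β3 (LAMB3) chains. Cells hold it through the integrin α6β4 (ITGA6 and ITGB4), the core of the hemidesmosome.

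After ADP-heptose, 4 of the 8 genes were higher at an adjusted p under 0.05 in edgeR's quasi-likelihood test, and each of the 4 rose by more than 2-fold, as 2.89% of all tested genes did, while 0.471% fell by as much. They were PLAU (48.8-fold), LAMA3 (3.72-fold), LAMB3 (3.13-fold) and PLAUR (2.76-fold). None of the 8 was lower in any of the 3 comparisons, at an unadjusted p under 0.05 or in DESeq2 either. After flagellin 2 of the 8 were higher, PLAU by 3.04-fold and LAMA3 by 1.66-fold. All 8 were among the 17412 genes that had enough counts to be tested. Of those genes, 7.48% were higher and 4.42% lower after ADP-heptose, and 0.368% were higher and 0.0115% lower after flagellin. In DESeq2 5 of the 8 were higher after ADP-heptose, SERPINE2 in addition, and 3 after flagellin, LAMB3 in addition. Over all tested genes DESeq2 had 1545 higher after ADP-heptose and 102 after flagellin. In the direct comparison of ADP-heptose with flagellin the same 4 genes as against non-stimulated cells were higher, where 5.40% of tested genes were higher and 2.76% lower. Each of the 4 again differed by more than 2-fold, as 2.06% of tested genes did in that direction. At an unadjusted p under 0.05, 5 of the 8 were higher after ADP-heptose, 3 after flagellin and 4 in the direct comparison, where 24.9%, 3.78% and 21.2% of all tested genes differed in either direction. The 3 non-stimulated libraries served as controls for both stimuli, so the values of the first 2 comparisons share them.

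**Figure D1:**
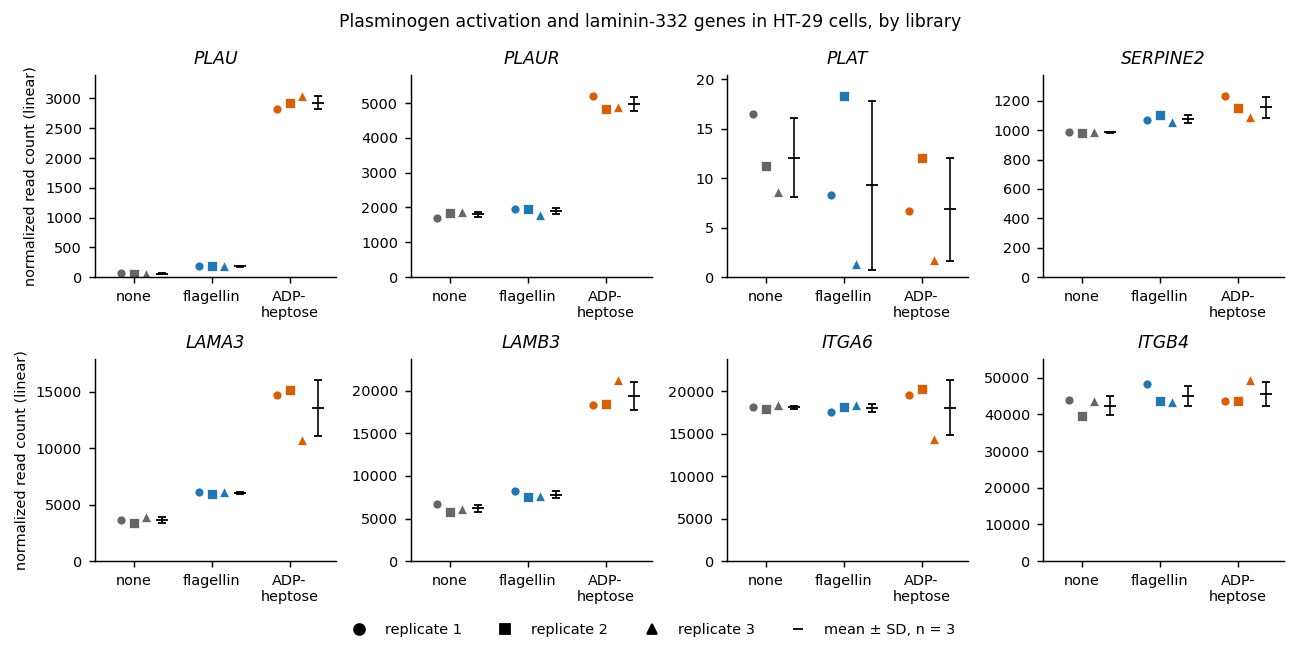
Normalized read count (linear axis from 0) of the 8 genes in each of the 9 libraries, by group, with the mean and SD of 3 libraries beside the points. PLAU, PLAUR, LAMA3 and LAMB3 were above both other groups in every ADP-heptose library, while PLAT, ITGA6 and ITGB4 overlapped.

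The libraries held 30770448 to 58272772 counts, and the 3 ADP-heptose libraries, with at least 50054773 each, were the deepest. The cells carried the markers of their label, with 30326 to 53263 counts of EPCAM and 17573 to 39365 of KRT20 per library, although the intestinal factors CDX1 (0 to 12 counts) and CDX2 (17 to 48) were low. The squamous markers KRT5, KRT14 and TP63 had at most 14 counts, the leukocyte gene PTPRC at most 2, and the fibroblast genes COL1A2 and DCN none, whereas COL1A1 (437 to 1019) and LYZ (13826 to 23970) were detected. After ADP-heptose COL1A1 (log2 0.41, adjusted p = 0.0311, edgeR) and KRT20 (0.40, 9.4e-04) were higher, also without replicate 3 (0.37 and 0.40), and LYZ was at -0.00 (0.983). The part of these markers in the results was not tested. ADP-heptose replicate 3 stood apart. The SD of its log2 difference from each of the other ADP-heptose libraries was 0.38 over 12168 genes, against 0.13 between those libraries and 0.17 to 0.20 within the other groups. Its log2 difference from the mean of the other libraries of its group fell with summed exon length, with a slope of -0.17 per doubling. By the same measure the other 8 libraries had slopes of -0.05 to 0.09. Those of ADP-heptose replicates 1 and 2 (0.08 and 0.09) were taken against a mean that includes replicate 3, so they are not independent of its slope. Without that library 2018 genes were higher and 1270 lower after ADP-heptose, against 1302 and 770 with it. When counts were scaled by library totals alone, the median log2 change of all genes after ADP-heptose moved from 0.01 to -0.13 and the calls to 917 higher and 1886 lower, and against flagellin the calls moved from 940 higher and 481 lower to 708 and 1064.

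Sequence upstream of the transcription starts was looked at in RefSeq windows of 250 bases before a start (GRCh38.p14), matched for 6 of the 8 genes. There were 11 windows, 7 of PLAU, PLAUR, LAMA3 and LAMB3, the 4 genes raised by ADP-heptose, and 4 of SERPINE2 and ITGA6, which were not past the threshold. The AP-1 motif TGANTCA, which reads the same on both strands, is bound by Fos and Jun dimers. It was found in 3 of the 11 windows, 1 each of LAMA3, PLAUR and LAMB3, where 6.57% of 35116 human windows of this length hold it. LAMA3 had 2 matches in a single window, as 0.402% of all windows do. That window precedes a start at 23873020, inside the gene, which begins at 23689443. The gene's outermost start had no window, and counts per gene do not tell which start the RNA came from. The 4 matches are printed below 5′ to 3′ on the gene's strand with 10 bases on either side, the motif in capitals, because this motif was the rarest of the 3 patterns searched over all windows.
LAMA3, 125 to 119 bases before the start, chr18:23872885-23872911, plus strand: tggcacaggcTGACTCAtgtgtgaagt
LAMA3, 69 to 63 bases before the start, chr18:23872941-23872967, plus strand: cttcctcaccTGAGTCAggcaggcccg
PLAUR, 186 to 180 bases before the start, chr19:43670339-43670365, minus strand: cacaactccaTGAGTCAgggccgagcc
LAMB3, 67 to 61 bases before the start, chr1:209651425-209651451, minus strand: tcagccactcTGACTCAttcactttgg
The LAMA3 and PLAUR stretches lie within exons of longer GENCODE transcripts of the same genes, and the LAMB3 stretch lies in no annotated exon. Neither PLAU window held the motif, nor did those of SERPINE2 and ITGA6. A kappa B pattern, read as GGG, any 5 bases and CC on either strand, was in 9 of the 11 windows, among them windows of all 6 genes, but also in 54.4% of all windows. The Sp1 pattern GGGCGG, likewise on either strand, was in 8 of the 11, among them windows of each gene but PLAUR, and in 42.6% of all. The LAMB3 windows before the starts at 209652425 and 209652329 overlap, so they share kappa B and Sp1 matches that count in both. The capitals overlap no match of these patterns, but the flanking bases do: the printed PLAUR stretch holds a kappa B match 179 to 170 bases before the start, and the LAMB3 stretch runs into an Sp1 match 52 to 47 bases before it. A match describes the letters and does not show that a factor binds. PLAT and ITGB4 were not matched.

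PLAU, on chromosome 10 (73909177 to 73917497, plus strand, GRCh38), encodes the urokinase zymogen. Its normalized read count was 67.0, 55.0 and 57.3 in the non-stimulated libraries, 179.9, 188 and 179 after flagellin, and 2818, 2926 and 3037 after ADP-heptose. The 3 groups did not overlap, and the spread within a group was far smaller than the steps between groups. The log2 fold change after ADP-heptose was 5.61 ± 0.10 (SE, 95% interval 5.38 to 5.83, adjusted p = 3.7e-12, edgeR). After flagellin it was 1.60 ± 0.11 (1.36 to 1.84, adjusted p = 8.1e-06). The difference between the stimuli was itself 4.01 ± 0.09 on the log2 scale (adjusted p = 5.3e-11), a 16.1-fold gap. C10orf55 lies antisense across PLAU exons and had 0 to 2 counts in non-stimulated, 0 to 4 in flagellin and 8 to 27 in ADP-heptose libraries, against 3382 to 4096 for PLAU in the last. Whether the counting used strand is not given in the sources used here, so reads of the overlapping exons cannot be told apart.

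PLAUR, on chromosome 19 (43646095 to 43670547, minus strand), encodes the membrane-anchored receptor that holds urokinase at the cell surface. It had normalized counts of 1711, 1833 and 1860 without stimulation, 1957, 1955 and 1785 with flagellin and 5195, 4815 and 4891 with ADP-heptose. Every ADP-heptose library lay above every other library, while the flagellin and non-stimulated libraries overlapped. The rise after ADP-heptose was 1.46 ± 0.07 on the log2 scale (SE, 95% interval 1.31 to 1.62, adjusted p = 3.3e-08, edgeR). With flagellin the log2 difference was 0.08, with a 95% interval of -0.08 to 0.23 (adjusted p = 1.0), whose upper end is a 1.18-fold increase. In bulk RNA of this kind, a change in the share of cells that express a gene and a change in RNA per cell cannot be told apart.

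PLAT, the tissue-type activator on chromosome 8, was near the detection limit. Its raw counts were 16, 10 and 8 in non-stimulated, 8, 16 and 1 in flagellin and 8, 17 and 2 in ADP-heptose libraries. The groups overlapped, and the 95% interval of the log2 difference after ADP-heptose, -2.38 to 0.83, is too wide to show a change of several fold in the lower direction or its absence at this depth (adjusted p = 0.540, edgeR). PLG, which encodes plasminogen itself and is made mainly by the liver, had 0 counts in all 9 libraries.

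SERPINE2, on chromosome 2 (223975112 to 224039319, minus strand), encodes protease nexin-1, an inhibitor of urokinase and thrombin. Its normalized counts were 988, 984 and 985 without stimulation, 1069, 1103 and 1054 with flagellin, and 1231, 1151 and 1090 with ADP-heptose. Both stimulated groups lay above the non-stimulated one without overlap, and overlapped with each other. The log2 difference after ADP-heptose was 0.23 ± 0.07 (SE, 95% interval 0.07 to 0.39) and missed the threshold at an adjusted p of 0.0668 (edgeR). It passed in 3 of 17 alternative fits, among them that without ADP-heptose replicate 3 (log2 0.28, adjusted p = 0.00518). With all 9 libraries it passed in DESeq2 (log2 0.23, adjusted p = 0.0441) and in edgeR with length and GC offsets (0.36, 0.00285). After flagellin it was 0.13, with an interval of -0.04 to 0.29. In all, 5 of the 8 genes had ADP-heptose libraries entirely above the non-stimulated ones, as did 15.4% of all tested genes, and 4 of the 8 had flagellin libraries entirely above them, as did 7.66%. None lay entirely below, where 14.7% and 5.19% of tested genes did. Of the 8, 4 had ADP-heptose libraries entirely above the flagellin ones and none below, beside 14.2% and 12.8% of tested genes.

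LAMA3, on chromosome 18 (23689443 to 23956222, plus strand), encodes the α3 chain, whose end binds the integrins. Normalized counts were 3682, 3340 and 3889 in non-stimulated, 6084, 5927 and 6127 in flagellin, and 14739, 15176 and 10713 in ADP-heptose libraries. The 3 groups did not overlap, and the lowest ADP-heptose value was that of replicate 3. The log2 fold change was 1.90 ± 0.12 after ADP-heptose (SE, 95% interval 1.64 to 2.15, adjusted p = 3.4e-07, edgeR), and 2.04 without that replicate. After flagellin it was 0.73 ± 0.12 (0.48 to 0.99, adjusted p = 0.0148). The flagellin call did not survive the loss of any single non-stimulated or flagellin library: the log2 value stayed between 0.67 and 0.78, with adjusted p between 0.0610 and 0.134. Between the stimuli the log2 difference was 1.16 ± 0.12 (adjusted p = 3.2e-05).

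LAMB3, on chromosome 1 (209614870 to 209652466, minus strand), encodes the β3 chain, which joins the trimer through its coiled coil. Its normalized counts were 6672, 5750 and 6139 without stimulation, 8287, 7507 and 7659 with flagellin, and 18386, 18438 and 21233 with ADP-heptose. Here too no groups overlapped, and replicate 3 was the highest of the ADP-heptose libraries. ADP-heptose raised the gene by 1.65 ± 0.08 on the log2 scale (SE, 95% interval 1.46 to 1.83, adjusted p = 5.0e-08, edgeR), and it exceeded flagellin by 1.31 ± 0.08 (adjusted p = 6.1e-07). The flagellin difference of 0.34 (0.16 to 0.52) had an adjusted p of 0.265, and it passed in 5 of 17 alternative fits. It passed at 2.7e-05 when ADP-heptose replicate 3 was left out of the fit, and at 6.7e-05 in a fit of the 6 libraries compared. With all 9 libraries it passed in DESeq2 (adjusted p = 0.0265). In edgeR it also passed without a count filter (0.0323) and with length and GC offsets (0.0359).

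The integrin that binds this laminin behaved differently. ITGA6, the α6 chain on chromosome 2 (172427354 to 172506282, plus strand), had 18083, 17933 and 18303 normalized counts without stimulation, 17510, 18145 and 18408 with flagellin, and 19481, 20291 and 14363 with ADP-heptose. The ADP-heptose libraries spanned both sides of the others, with replicate 3 the lowest of all 9. The log2 difference after ADP-heptose was -0.00, with a 95% interval of -0.24 to 0.23 (adjusted p = 0.982, edgeR). That value rests on replicate 3: without it the difference was 0.14 (adjusted p = 0.0200), and 0.15 against flagellin (adjusted p = 0.0118). Antisense genes overlap ITGA6 exons, and the most abundant, LOC124900513, had 45 to 140 counts.

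ITGB4, the β4 chain on chromosome 17 (75721328 to 75757818, plus strand), carries the long cytoplasmic tail that links to keratin filaments. Its normalized counts were 43995, 39456 and 43631 in non-stimulated, 48252, 43708 and 43255 in flagellin and 43627, 43573 and 49267 in ADP-heptose libraries. All groups overlapped. The log2 difference was 0.10 after ADP-heptose (95% interval -0.08 to 0.28, adjusted p = 0.466, edgeR) and 0.09 after flagellin (-0.09 to 0.27, adjusted p = 1.0), so an increase beyond 1.22-fold lay outside the first interval.

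**Figure D2:**
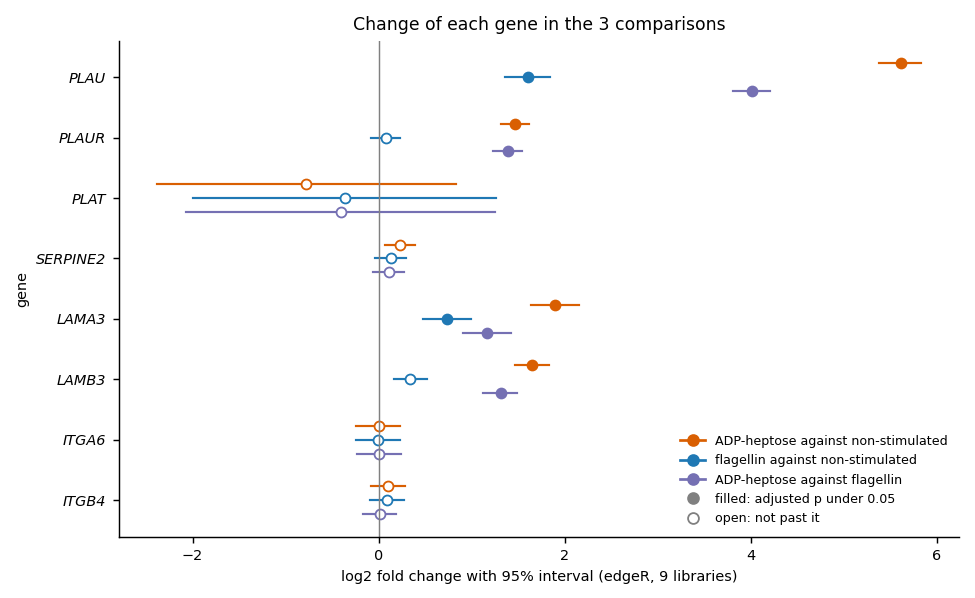
Log2 fold change with its 95% interval for the 8 genes in the 3 comparisons, from the edgeR fit of all 9 libraries. PLAU lies farthest right at 5.61 after ADP-heptose, LAMA3 and LAMB3 lie at 1.90 and 1.65, and ITGA6 and ITGB4 lie at -0.00 and 0.10.

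Levels of different genes were compared as normalized counts per kilobase of summed exon length. In non-stimulated cells ITGB4 led with 6265 ± 373 (SD, n = 3), followed by ITGA6 with 2771 ± 28.5, LAMB3 with 1320 ± 98.8, PLAUR with 404 ± 17.8, LAMA3 with 248 ± 18.9, SERPINE2 with 111 ± 0.244 and PLAU with 20.3 ± 2.17. PLAT (1.83 ± 0.605) came last, and no neighbours in this order overlapped. After ADP-heptose PLAU reached 992 ± 37.2 and overlapped LAMA3 (923 ± 168). LAMB3, at 4128 ± 347, passed ITGA6 (2762 ± 492), without overlap. After flagellin PLAUR (426 ± 22.2) and LAMA3 (412 ± 7.19) overlapped, and the order was otherwise that of non-stimulated cells. Dividing by the longest transcript instead raised PLAUR to 1119 per kilobase in non-stimulated cells and to 3085 after ADP-heptose, where it overlapped ITGA6 (3212). By that length the mean of LAMA3 (1270) lay above that of PLAU (1101) after ADP-heptose, but their libraries overlapped.

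**Figure D3:**
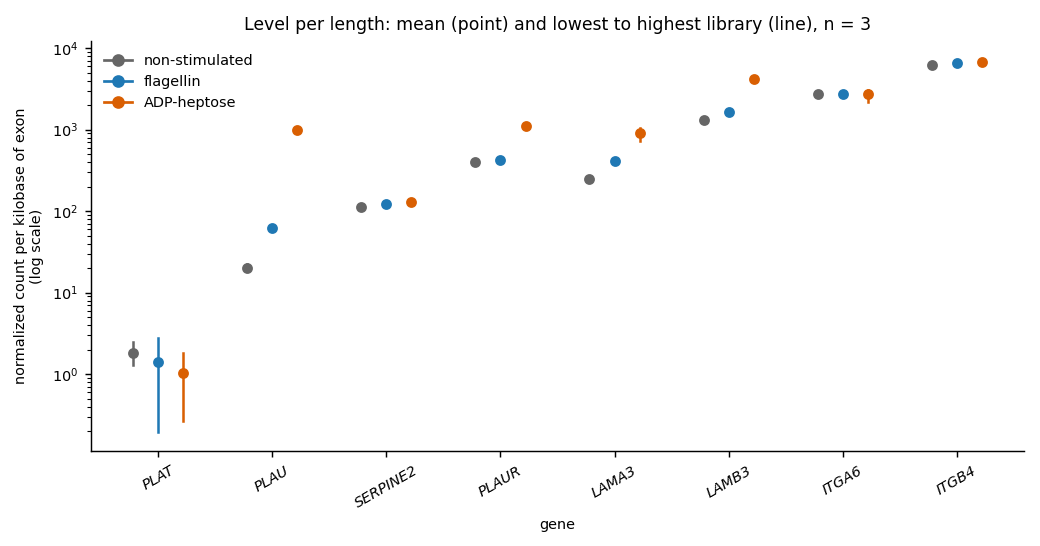
Normalized count per kilobase of summed exon length (log axis) by gene and group; points are means and lines run from the lowest to the highest of 3 libraries. The mean of PLAU climbed from 20.3 to 992 per kilobase, past SERPINE2. The group means of ITGB4 and ITGA6 were 6265 to 6728 and 2758 to 2771, while the ADP-heptose libraries of ITGA6 ran from 2198 to 3106.

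Ratios of these per-kilobase levels within a library compare the transcripts of partners, not their proteins, and depend on the length used. The ratio of PLAU to PLAUR was 0.0504 ± 0.00768 (SD, n = 3) in non-stimulated, 0.145 ± 0.00616 in flagellin and 0.892 ± 0.0635 in ADP-heptose cells, and in the last 0.358 by the longest transcripts. That of PLAU to SERPINE2 was 0.183 ± 0.0192, 0.510 ± 0.00283 and 7.65 ± 0.752 in the same order. The transcript of the enzyme exceeded that of this inhibitor in the ADP-heptose libraries alone. The ratio of LAMB3 to ITGB4 was 0.211 ± 0.00792, 0.250 ± 0.00442 and 0.613 ± 0.00734. Of these 3 ratios no groups overlapped, and with 3 libraries against 3 an exact two-sided permutation test cannot give a p under 0.1.

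The transcript ratio of the laminin chains was less clear. LAMA3 stood to LAMB3 as 0.176, 0.186 and 0.202 in the non-stimulated libraries, 0.235, 0.252 and 0.256 with flagellin, and 0.256, 0.263 and 0.161 with ADP-heptose. The first 2 ADP-heptose libraries lay at or above the flagellin values, and replicate 3 lay below every other library.

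Among the genes shown, replicate 3 was lower than the mean of ADP-heptose replicates 1 and 2 by 28.4% for LAMA3 and 27.8% for ITGA6. It was higher for LAMB3 (1.15 times) and ITGB4 (1.13 times), and close for PLAU (1.06 times) and PLAUR (0.977 times). LAMA3 has 14.7 kilobases of summed exon and ITGA6 6.53, beside 6.76 for ITGB4. In a fit that took out the trends with summed exon length and GC content, the log2 change after ADP-heptose was 1.96 for LAMA3.

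The wider pathway was read from lists of related genes. Besides the members, 11 of 18 plasminogen system genes could be tested, and SERPINA5, the protein C inhibitor, was higher after ADP-heptose. SERPINA5 had raw counts of 54, 41 and 42 in non-stimulated and 261, 303 and 170 in ADP-heptose libraries, a log2 change of 1.99 ± 0.21 (adjusted p = 4.4e-05, edgeR). The surface plasminogen binders did not pass: the log2 difference was 0.22 for S100A10 (adjusted p = 0.332), 0.26 for ANXA2 (0.134), 0.25 for ENO1 (0.254) and 0.15 for PLGRKT (0.517). ANXA2 passed without ADP-heptose replicate 3, at 0.13 (0.0409). SERPINF2, the inhibitor of plasmin, differed by 0.14 (adjusted p = 0.666), LRP1, which clears activator and inhibitor complexes, by 0.04 (0.838), and SERPINB2, plasminogen activator inhibitor-2, had 0 counts in every library.

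Of 5 other laminin chains tested none rose, and LAMB1, a chain of laminins made by many tissues, was the 1 that fell, by 0.34 on the log2 scale (adjusted p = 0.0170, and between 0.0564 and 0.0724 when any 1 non-stimulated library was left out, and 0.0669 in a fit of the 6 libraries compared). LAMA5 (0.18, adjusted p = 0.151) and LAMC1 (0.33, 0.123) did not pass with all libraries, and both passed without ADP-heptose replicate 3 (0.23 and 0.49). Among 9 other tested laminin receptors and hemidesmosome genes, PLEC, which ties ITGB4 to keratin, rose by 0.73 ± 0.08 (adjusted p = 3.9e-05). The receptor chains ITGA3 (0.07, adjusted p = 0.529) and ITGB1 (-0.05, 0.845) did not pass, nor did COL17A1 (0.19, 0.0874), a further hemidesmosome protein. Without replicate 3 the direction of ITGB1 turned and it was higher (0.12, adjusted p = 0.0476), as was COL17A1 (0.22, 5.6e-04). Of 7 tested genes for other basement membrane proteins, COL4A2 fell by 0.37 (adjusted p = 0.0241), a call lost without non-stimulated replicate 2 (0.0975), non-stimulated replicate 3 (0.0679) or ADP-heptose replicate 1 (0.0788), and in the 6-library fit (0.0691). PLEC, LAMB1, COL4A2, ITGB8 and SERPINA1 changed less than 2-fold. They and the list genes given here without a call were picked for the text after their values were known.

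Of 12 other integrin chains tested, 3 were higher. ITGAV, the αv chain of vitronectin receptors, had normalized counts of 4699, 4273 and 4771 without stimulation, 5299, 5790 and 5926 with flagellin, and 12207, 12579 and 9367 with ADP-heptose, and rose by 1.31 ± 0.11 on the log2 scale (adjusted p = 3.4e-06, edgeR). No groups overlapped. ITGB8, a partner of αv, rose by 0.86 ± 0.14 (adjusted p = 0.00124). ITGAM had raw counts of 0, 0 and 6 in non-stimulated and 59, 42 and 23 in ADP-heptose libraries (adjusted p = 0.0121), a call lost without non-stimulated replicate 1 (0.0563) or 2 (0.0524). After flagellin it had 2, 2 and 8 raw counts. ITGAM thus entered the tested set only through the ADP-heptose libraries, the group where it was high, which limits its call. ITGB3, another partner of αv, was below the filter, with 0 counts in the 6 other libraries and 9, 16 and 6 after ADP-heptose.

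Of 17 tested matrix proteases and their inhibitors, 4 were higher and none lower after ADP-heptose, all of them secreted matrix metalloproteinases encoded on chromosome 11. MMP7, matrilysin, was abundant, with normalized counts of 12227, 13087 and 12907 in non-stimulated, 17139, 16794 and 16785 in flagellin and 39609, 39242 and 49375 in ADP-heptose libraries. These groups did not overlap, and the log2 change after ADP-heptose was 1.75 ± 0.09 (adjusted p = 6.8e-08, edgeR). MMP10, stromelysin-2, went from 19.6, 30.3 and 23.8 to 537, 536 and 549.8 normalized counts, a change of 4.46 ± 0.19. The collagenases MMP13 (3.28 ± 0.31) and MMP1 (3.07 ± 0.43) began from 15 to 30 and 2 to 9 raw counts. MMP3 was below the filter, at 0 in the 6 other libraries and 6, 18 and 2 after ADP-heptose. TIMP1, an inhibitor of these enzymes, differed by 0.46 (adjusted p = 0.101) and passed without replicate 3, at 0.17 (0.0416).

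Among 13 other serpins tested, 6 were higher. SERPINB8 (log2 1.57 ± 0.13, adjusted p = 5.6e-06, edgeR) and SERPINB9 (1.77 ± 0.15, 5.8e-06), the inhibitor of granzyme B, had 325 to 391 and 320 to 389 raw counts in non-stimulated cells. SERPINA1, the inhibitor of neutrophil elastase, rose by 0.65 ± 0.10 (adjusted p = 6.2e-04). SERPINA3, antichymotrypsin, had 4, 0 and 2 raw counts without stimulation and 59, 81 and 55 with ADP-heptose (adjusted p = 4.2e-04). With 4, 4 and 0 after flagellin, it too entered the tested set only through the ADP-heptose libraries, which limits its call. SERPINA4 (adjusted p = 0.0234) lost its call without non-stimulated replicate 2 (0.0916) or 3 (0.0965) or ADP-heptose replicate 2 (0.0646). SERPINA6 (0.0275) lost it without non-stimulated replicate 1 (0.0584) or 3 (0.0782) or ADP-heptose replicate 1 (0.0544), with the replicate block (0.0559) and in the 6-library fit (0.0609).

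Over all lists and without the 8 members, 74 genes were tested, of which 15 were higher and 2 lower after ADP-heptose, with a median log2 change of 0.15 against 0.0087 over all tested genes. The share higher was 20.3%, beside 7.48% of all tested genes. Among the genes higher, ITGAM and SERPINA3 had enough counts to be tested only in the ADP-heptose libraries, where they were high. Against flagellin 13 of the 74 were higher after ADP-heptose and 2 lower, beside 5.40% and 2.76% of all tested genes. After flagellin none of the 74 passed in edgeR. At an unadjusted p under 0.05, 8 were higher and none lower, where 3.78% of all tested genes differed in either direction. In DESeq2 1 of the 74 was higher, beside 102 of all 17412 tested genes. The median log2 change of the 74 after flagellin was 0.07 in edgeR, against 0.0048 over all tested genes. After ADP-heptose 24 of the 74 lay entirely above the non-stimulated libraries and 5 entirely below (32.4% and 6.76%), beside 15.4% and 14.7% of all tested genes. Against flagellin 20 lay above and 7 below (27.0% and 9.46%), beside 14.2% and 12.8%. Of the 74, 15 had flagellin libraries entirely above the non-stimulated ones and 3 entirely below, which is 20.3% and 4.05% beside 7.66% and 5.19% of all tested genes. MMP7 (0.41, adjusted p = 0.146) and ITGAV (0.31, 0.896) were among the 15. Without ADP-heptose replicate 3 the counts were 25 higher and 2 lower of 77 tested after ADP-heptose, and 4 higher after flagellin. These 4 were PLEC, ITGAV, MMP7 and SERPINB9. Of the 8 members, 6 were then higher after ADP-heptose (SERPINE2 and ITGA6 in addition) and 3 after flagellin (LAMB3 in addition). Calls over all genes increased in that fit too. Of its 17966 tested genes, 2018 were higher and 1270 lower after ADP-heptose, against 1302 and 770 with all libraries. After flagellin 165 were higher and 6 lower, against 64 and 2.

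**Figure D4:**
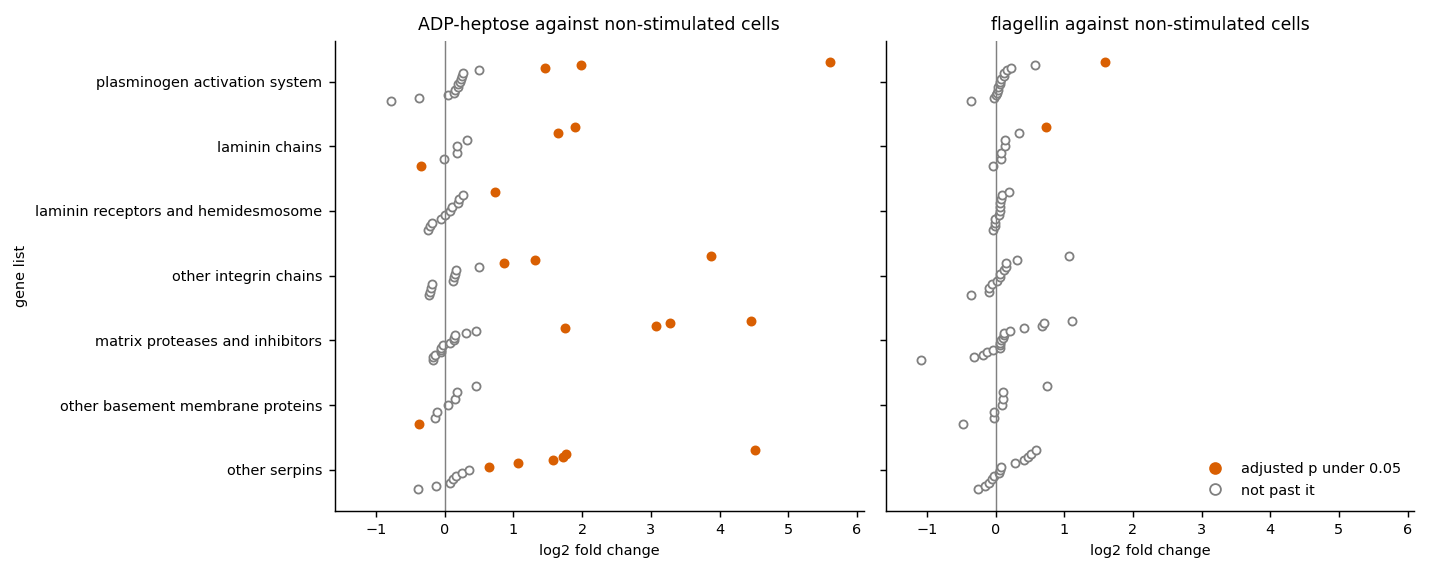
Log2 fold change of every tested gene of 7 lists, members included, after ADP-heptose (left) and flagellin (right), filled where the adjusted p was under 0.05. After ADP-heptose 19 of 82 genes are filled on the right side of 0 and 2 on the left, and after flagellin PLAU and LAMA3 alone are filled.

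For each member the genes of nearest profile were sought among 12168 expressed genes, by Euclidean distance between centred log2 CPM values over the 9 libraries. PLAU lay nearest to TNFAIP3 (1.14), ICAM1 (1.34) and CXCL3 (1.35), where the median distance was 7.04. PLAUR lay nearest to PIM3 (0.195), ELF3 (0.204) and PNRC1 (0.221), LAMA3 to ABTB2 (0.216), NFKB1 (0.324) and SGPP2 (0.374), and LAMB3 to TNKS1BP1 (0.204), EHD1 (0.226) and SQSTM1 (0.246). ITGA6 lay nearest to TAF2 (0.0495), USP22 and MARCHF6, ITGB4 to PSMF1 (0.0865), DPH2 and CCAR2, and SERPINE2 to DMWD (0.0921), SLC49A4 and TMEM184B, each with log2 changes within 0.23 of 0 after ADP-heptose. PLAT, at the counting limit, was no closer than 1.60 to any gene. No member of the 8 was among the 3 nearest of another.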

How the data were processed

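RNA of 9 HT-29 libraries was enriched for poly(A) and sequenced as paired reads of 150 bases. The authors aligned reads with HISAT2 and made the deposited raw counts per gene with featureCounts; versions, genome build and strandedness are not given in the sources used here. Of 62710 identifiers, 232 listed repeatedly with identical counts were kept once, and 58274 matched GENCODE 29 (GRCh38), which gave positions and lengths. The study used DESeq2. Here all 9 libraries were fitted with edgeR 4.0.16 (quasi-likelihood, TMM, filterByExpr, R 4.3.3), with Benjamini-Hochberg adjustment over 17412 genes. In simulated data with 200 changed genes, edgeR and DESeq2 each recovered 193 for ADP-heptose against non-stimulated cells. Of the genes called there, 7.66% were false in edgeR and 15.72% in DESeq2. Both shares were above the adjusted p threshold of 0.05. A normalized count is a count scaled by the TMM effective library size. Alternatives were DESeq2 1.42.0, library totals, other filters, 6-library fits, a replicate block, length and GC offsets, and each library left out. The members and lists were chosen with earlier results of these data known. Named by rule were the members, PLG, list genes changed at least 2-fold, and the 3 nearest profiles per member. The other list genes and the markers in the text are outside this rule and were chosen with their values known. Some related genes are not reported here. The libraries held 30770448 to 58272772 counts, so counting error matters mainly for genes with few counts, such as PLAT.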

Additional observations from a re-analysis of the deposited data

How the results depend on the processing

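PLAU, PLAUR, LAMA3 and LAMB3 kept direction and side of the threshold under all 17 alternatives in both comparisons of ADP-heptose, with log2 changes against non-stimulated cells of 5.47 to 5.70, 1.33 to 1.49, 1.77 to 2.04 and 1.51 to 1.70. So did PLAU after flagellin (1.55 to 1.69). The number of members higher after flagellin, 2 in the report, was 1 with library totals (LAMA3 adjusted p = 0.0527). With the replicate block it was also 1 (0.0716). It was 3 with DESeq2, where LAMB3 passed as well (adjusted p = 0.0265). In edgeR LAMB3 passed too without a count filter (0.0323), in the 6-library fit (6.7e-05) and with length and GC offsets (0.0359). PLAU and LAMA3 kept their calls in these fits. The fits without a single library gave 1 to 3, as LAMA3 or LAMB3 crossed the threshold. LAMA3 after flagellin passed in 9 of the 17 alternatives, LAMB3 in 5, and SERPINE2 after ADP-heptose in 3. Deviations from group means of same-numbered libraries correlated at -0.379 to 0.222 over 9 pairs, 2 of them over 0.1. Of 18 best matches, 4 were with the own number. In the ADP-heptose group replicate 3 correlated with replicates 1 and 2 at -0.876 and -0.884, and so dominated the deviations. These values therefore do not decide whether replicate numbers pair the libraries. The block changed no other member's call.

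Differences near 0 changed sign. After ADP-heptose ITGA6 was 0.09 with length and GC offsets and -0.10 to 0.14 over the fits without a single library, and ITGB4 was -0.04 with library totals. After flagellin ITGA6 was 0.02 with offsets, and the fits without a single library gave -0.03 to 0.01 for ITGA6, -1.27 to 0.11 for PLAT, -0.06 to 1.36 for SERPINA3, -0.01 to 0.15 for SERPINB8 and -0.05 to 0.03 for COL4A2. Between the stimuli SERPINE2 was -0.01, ITGA6 -0.11 and ITGB4 -0.11 with library totals. ITGA6 was also -0.00 with a minimum mean of 10 counts and -0.01 with the replicate block, and ITGB4 -0.03 with offsets. The fits without a single library then gave -0.09 to 0.15 for ITGA6, -0.04 to 0.07 for ITGB4 and -1.11 to 0.49 for PLAT. The cause of these changes was not tested.

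Over all genes the calls after flagellin, 64 higher in the report, ranged from 38 to 165, with 165 without ADP-heptose replicate 3, 140 in a fit of the 6 libraries compared, 114 without a count filter and 102 with DESeq2. After ADP-heptose 770 were lower in the report, 433 in the 6-library fit, 392 without non-stimulated replicate 3 and 1886 with library totals. Between the stimuli 481 were lower in the report, 233 without flagellin replicate 2 and 1064 with library totals, and 940 were higher in the report and 1798 without ADP-heptose replicate 3. Depth limits PLAT, ITGAM, ITGB3 and MMP3, which had few counts in each library.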
